A study of Rattus norvegicus with 8 samples.

Results

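The 9 genes described here, *Irf7*, *Irf9*, *Isg15*, *Mx1*, *Mx2*, *Ifit2*, *Ifit3*, *Rsad2* and *Oasl*, are interferon-stimulated genes and interferon regulators of the rat brain after delivery of a viral vector. They were taken as all probes other than controls whose RefSeq accession maps to one of these symbols, which gave 11 probes among the 45598 on the array. The rule uses no measured level. Adult female Sprague Dawley rats, aged 3 months at surgery, received a unilateral injection into the *substantia nigra* (SN) of an adeno-associated viral (AAV) vector, serotype 6. The AAV-αSyn vector carried wild-type human α-synuclein at a titre of 5.2e10 vector genomes per µL, and the control vector without that transgene, AAV-Null, was given at 5.3e9 vector genomes per µL. The transgene and the difference in titre therefore cannot be told apart in this design, and no uninjected or vehicle-injected rat is among the samples. The ipsilateral SN was taken 20 weeks after surgery and its RNA was labelled with Cy3 and hybridised to 8 Agilent one-colour arrays, 4 per group. The promoter that drives the transgene is not given in the sources used here.

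Type I interferons are secreted when a cell senses viral nucleic acid, and they signal through a shared receptor, the kinases JAK1 and TYK2, and a complex that holds STAT2 and IRF9. That complex binds interferon-stimulated response elements in front of target genes, whose products block viral entry, replication and release. In brain many of these genes are expressed at a low level at rest and can be induced in microglia, astrocytes, endothelium and neurons.

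The response element holds a pair of GAAA blocks, and its core was searched here as GAAANNGAAA on both strands in windows from 250 bases before to 50 bases after each RefSeq gene start (assembly GRCr8). It lay in 1312 of 33469 windows (3.92%). Of the 9 genes, 6 had a window and 3 of these held the core, *Irf7*, *Ifit3* and *Rsad2*, while the windows of *Mx1*, *Irf9* and *Oasl* did not hold these letters. *Isg15*, *Mx2* and *Ifit2* had no entry. The stretches around the matches are shown because they are the part of the promoter that the interferon complex is known to read, with the match in capitals. A match in letters is a description and not evidence of binding. The sequences are written 5′ to 3′ along the gene's strand, at chr1:205800043-205800132 (minus strand) for *Irf7*, at chr1:241527242-241527331 (plus strand) for *Ifit3*, at chr6:48788218-48788307 (minus strand) for *Rsad2* and at chr12:41330385-41330480 (plus strand) for *Oas1a*, a further interferon-stimulated gene described below.
Irf7: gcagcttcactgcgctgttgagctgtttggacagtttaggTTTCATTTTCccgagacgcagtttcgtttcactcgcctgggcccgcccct
Ifit3: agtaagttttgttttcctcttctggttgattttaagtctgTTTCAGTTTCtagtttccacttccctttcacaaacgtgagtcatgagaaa
Rsad2: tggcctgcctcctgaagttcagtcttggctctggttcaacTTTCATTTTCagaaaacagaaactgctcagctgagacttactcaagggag
Oas1a: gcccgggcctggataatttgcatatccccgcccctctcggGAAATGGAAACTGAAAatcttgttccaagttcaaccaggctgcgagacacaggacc
In the first 3 sequences the core lies on the opposite strand and so reads TTTC. It begins 69 bases before the start of *Irf7*, 44 bases before that of *Ifit3* and 147 bases before that of *Rsad2*. In *Oas1a* it lies on the gene's own strand, with 2 overlapping matches, the first of which begins 41 bases before the start. Of a longer list of interferon-stimulated genes used below, 28 of 46 windows (60.9%) held the core.

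On each array between 74.8% and 77.5% of the spots were well above background, the median intensity was between 261 and 338, and no spot was saturated. All arrays lay on 1 slide and were read in 1 scan. Across the 33853 probes tested with limma, 5 (0.0148%) passed a Benjamini–Hochberg adjusted p of 0.05, and 1908 (5.64%) had an unadjusted p under 0.05. Of the latter, 787 (2.32% of all) were lower after AAV-αSyn and 1121 (3.31%) higher.

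Of the 9 genes, 8 were measurable, and none of their 10 tested probes differed between the AAV-αSyn and AAV-Null groups after adjustment. The lowest adjusted p (limma, Benjamini–Hochberg over all probes) was 0.829. At an unadjusted p under 0.05 there was 1 probe, that of *Irf7*, which was lower in the AAV-αSyn group. This is 1 of 10 beside 5.64% of all probes. Of the 10 probes, 5 were higher and 5 lower, and in none of them did the 4 arrays of one group lie clear of the other 4, which was so for 3.83% of all probes. With each gene taken by its brightest probe, 3 genes were higher and 5 lower, and the median log2 difference was −0.09. Over the 10 probes the median was −0.0011, beside 0.0083 over all probes tested. The 95% intervals below give the sizes of difference that 4 arrays per group leave possible.

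**Figure D1:**
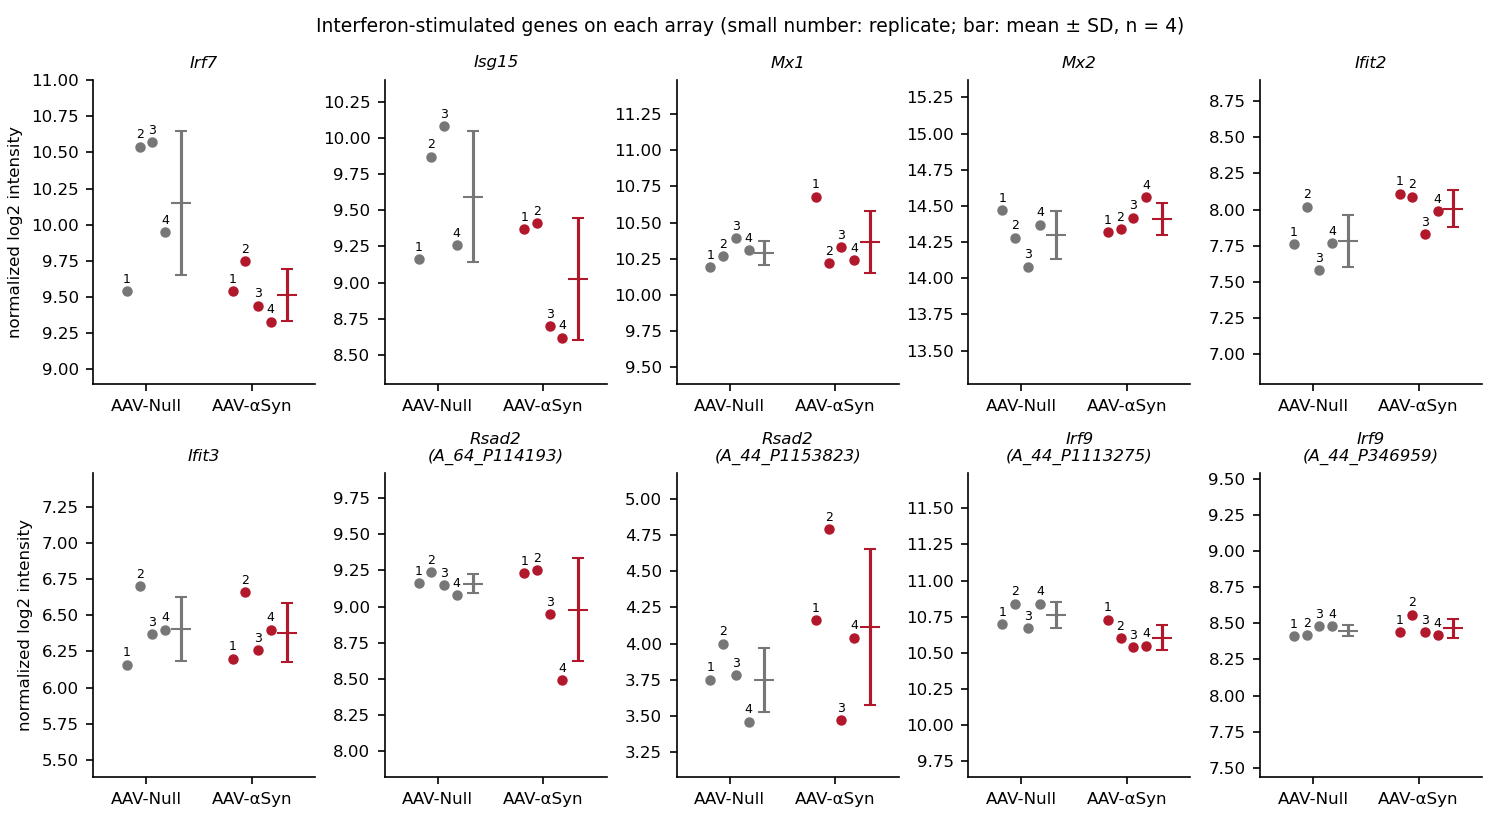
Normalized log2 intensity (vertical axis, each panel spanning the same log2 range) of the 10 tested probes on each array, AAV-Null in grey and AAV-αSyn in red, with the replicate number above each point and the mean ± SD (n = 4) as a bar. *Irf7* is highest on AAV-Null replicates 2 and 3 (10.54 and 10.57), and in every panel the groups overlap.

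The regulators come first. IRF7 is the transcription factor that amplifies interferon production and is itself induced by interferon. The log2 intensity of *Irf7* (probe A_44_P1039994, NM_001033691) was 9.54, 10.54, 10.57 and 9.95 on AAV-Null replicates 1 to 4. On AAV-αSyn replicates 1 to 4 it was 9.54, 9.75, 9.44 and 9.33. Replicates 2 and 3 of the AAV-Null group stood high, and AAV-Null replicate 1 lay among the AAV-αSyn arrays. The mean of the AAV-Null arrays was 10.15 ± 0.50 (SD, n = 4) and that of the AAV-αSyn arrays 9.52 ± 0.18 (SD, n = 4), a log2 difference of −0.64 (SE 0.23, 95% interval −1.17 to −0.10) or 0.644 times the control level. Its unadjusted p was 0.0260 and its adjusted p 0.829 in limma, and the exact permutation test, two-sided, gave p = 0.0857, where 0.0286 is the smallest value that 4 arrays against 4 allow. The unadjusted limma p rose above 0.05 when AAV-Null replicate 2 (0.0689), AAV-Null replicate 3 (0.0708), AAV-αSyn replicate 3 (0.0558) or AAV-αSyn replicate 4 (0.0637) was left out.

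IRF9 is the DNA-binding subunit of the complex that carries the interferon signal to the nucleus. Its brighter probe (A_44_P1113275, XM_006251974) gave log2 intensities of 10.70, 10.84, 10.67 and 10.84 in the AAV-Null group and 10.73, 10.60, 10.54 and 10.55 in the AAV-αSyn group. Only AAV-αSyn replicate 1 reached into the AAV-Null range. The difference was −0.16 (95% interval −0.34 to 0.02), with an unadjusted limma p of 0.0797 and an adjusted p of 0.920. The unadjusted limma p was 0.0387 when AAV-Null replicate 3 was left out and 0.0459 when AAV-αSyn replicate 1 was. It was also 0.0478 with cyclic loess, 0.0445 without the filter on dim probes and 0.00397 with array weights, which put 17.0% of all probes under 0.05. After normexp background correction it was 0.118, and with the replicate number as a block 0.125. It was between 0.141 and 0.19 without AAV-Null replicate 2 or 4 or AAV-αSyn replicate 2, 3 or 4. Averaging the *Irf9* probes gave a difference of −0.068, with an unadjusted limma p of 0.326. The other *Irf9* probe (A_44_P346959, NM_001012041) ran from 8.41 to 8.48 in the AAV-Null group and from 8.42 to 8.56 in the AAV-αSyn group. Its difference was 0.02 (95% interval −0.13 to 0.17), so the *Irf9* probes did not share a direction, and the difference of the first was the larger.

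ISG15 is a ubiquitin-like protein that is coupled to other proteins after interferon exposure. *Isg15* (A_44_P1013314, NM_001106700) had log2 intensities of 9.16, 9.87, 10.08 and 9.26 in the AAV-Null group. In the AAV-αSyn group they were 9.37, 9.41, 8.70 and 8.62. AAV-Null replicates 2 and 3 were the highest of the 8, as for *Irf7*, and AAV-αSyn replicates 3 and 4 were the lowest. The difference was −0.57 (SE 0.27, 95% interval −1.19 to 0.06), with an unadjusted p of 0.0701 and an adjusted p of 0.919 in limma and an exact permutation p of 0.171. The unadjusted limma p was 0.0379 when AAV-Null replicate 1 was left out and 0.0444 when AAV-αSyn replicate 2 was. It rose to between 0.155 and 0.18 without AAV-Null replicate 2 or 3 or AAV-αSyn replicate 3 or 4. With an intensity trend it was 0.0461, and with array weights, which put 17.0% of all probes under 0.05, it was 0.0113. Scaling by the 75th percentile gave 0.0886, and the side of the slide as a block 0.0902. Within each group the arrays spread by 0.45 (AAV-Null) and 0.42 (AAV-αSyn) on the log2 scale (SD, n = 4), against a difference in means of −0.57.

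The Mx proteins are dynamin-like GTPases that trap viral components. *Mx1* (A_64_P042415, NM_173096) read 10.19, 10.27, 10.39 and 10.31 on the AAV-Null arrays and 10.68, 10.22, 10.33 and 10.24 on the AAV-αSyn arrays. AAV-αSyn replicate 1 was the single high array. The difference of 0.08 (95% interval −0.19 to 0.34, exact permutation p = 0.714) became −0.03 without that array. *Mx2* (A_64_P108623, NM_134350) read 14.47, 14.28, 14.08 and 14.37 in the AAV-Null group and 14.32, 14.34, 14.42 and 14.56 in the AAV-αSyn group. Before normalization the *Mx2* intensity was 15970 to 26230, beside array medians of 261 to 338. Its lowest array was AAV-Null replicate 3, the array on which *Isg15* and *Irf7* were highest. The *Mx2* difference was 0.11 (95% interval −0.12 to 0.35, exact permutation p = 0.343), and it was 0.04 when AAV-Null replicate 3 was left out and 0.06 when AAV-αSyn replicate 4 was.

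The IFIT proteins bind foreign RNA and restrain its translation. *Ifit2* (A_44_P696994, NM_001024753) gave 7.76, 8.02, 7.58 and 7.77 on the AAV-Null arrays and 8.11, 8.09, 7.83 and 7.99 on the AAV-αSyn arrays. AAV-Null replicate 2 lay within the range of the AAV-αSyn arrays, and the other 3 AAV-Null arrays lay below it. The difference was 0.22 (SE 0.112, 95% interval −0.04 to 0.48), with an unadjusted p of 0.0838 and an adjusted p of 0.924 in limma and an exact permutation p of 0.0857. The *Ifit2* difference was 0.30 without AAV-Null replicate 2 (with an unadjusted limma p of 0.0243) and 0.28 without AAV-αSyn replicate 3 (0.0482), but 0.029 with arrays weighted by their quality. *Ifit3* (A_64_P082067, NM_001007694) gave 6.16, 6.70, 6.37 and 6.40 in the AAV-Null group and 6.20, 6.66, 6.26 and 6.40 in the AAV-αSyn group. Its groups covered almost the same range, with a difference of −0.02 (95% interval −0.35 to 0.30, exact permutation p = 0.943), or −0.19 with array weights.

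*Rsad2* encodes viperin, an enzyme that makes a chain-terminating nucleotide. The brighter of its probes (A_64_P114193, NM_138881) gave 9.16, 9.24, 9.15 and 9.08 on the AAV-Null arrays and 9.23, 9.25, 8.95 and 8.49 on the AAV-αSyn arrays. AAV-αSyn replicate 4 stood low. The difference was −0.17 (95% interval −0.55 to 0.20, exact permutation p = 0.429), and −0.01 without that array and −0.26 without AAV-αSyn replicate 2. The dimmer probe (A_44_P1153823, for the same transcript) was well above background on 6 of the 8 arrays and ran from 3.46 to 4.0 in the AAV-Null group and from 3.47 to 4.79 in the AAV-αSyn group. Its difference was 0.37 (95% interval −0.22 to 0.96, exact permutation p = 0.257), in the other direction. It was 0.15 without AAV-αSyn replicate 2, 0.59 without AAV-αSyn replicate 3 (with an unadjusted limma p of 0.0245) and 0.048 after normexp background correction. *Oasl*, which encodes an oligoadenylate synthetase-like protein (A_44_P492025, NM_001009681), was not well above background on any of the 8 arrays, with intensities between 2.21 and 11.7, and was not tested.

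**Figure D2:**
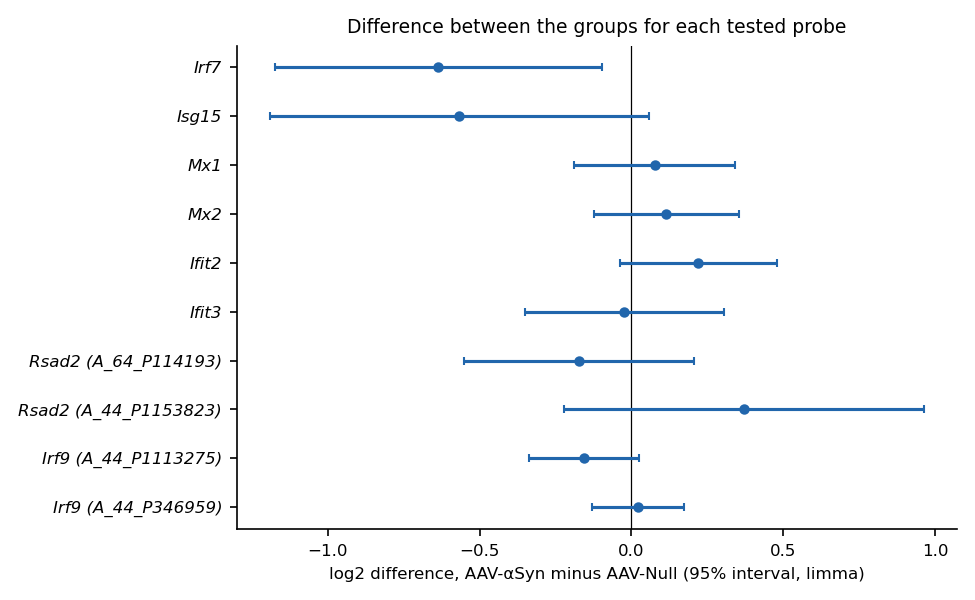
Log2 difference, AAV-αSyn minus AAV-Null (horizontal axis), for the 10 tested probes, with points for the limma estimate and bars for its 95% interval (4 arrays per group). The interval of *Irf7* (−1.17 to −0.10) lies below 0 before adjustment for the number of probes, and the other 9 intervals include 0.

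The 8 measurable genes did not vary as one block from array to array. Over the 28 pairs of genes the median Pearson correlation across the 8 arrays was 0.18, from −0.91 to 0.91, and 17 pairs had a correlation above 0. These are descriptions over arrays of 1 slide, each from a different rat, and the pairs are not independent. The highest was that of *Irf7* with *Isg15* (r = 0.91, Spearman's rho = 0.93), which was 0.72 without the 2 arrays farthest from the median of *Irf7* and 0.86 when each value was taken relative to its group's mean. *Isg15* and *Rsad2* had r = 0.72 (rho = 0.69). *Isg15* and *Mx2* ran opposite to each other (r = −0.91, rho = −0.95, and −0.90 relative to the group means), as did *Irf7* and *Mx2* (r = −0.84). The genes thus fell on different sides within the same arrays, and AAV-Null replicate 3 was 0.77 above the 8-array mean for *Isg15* and 0.28 below it for *Mx2*.

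**Figure D3:**
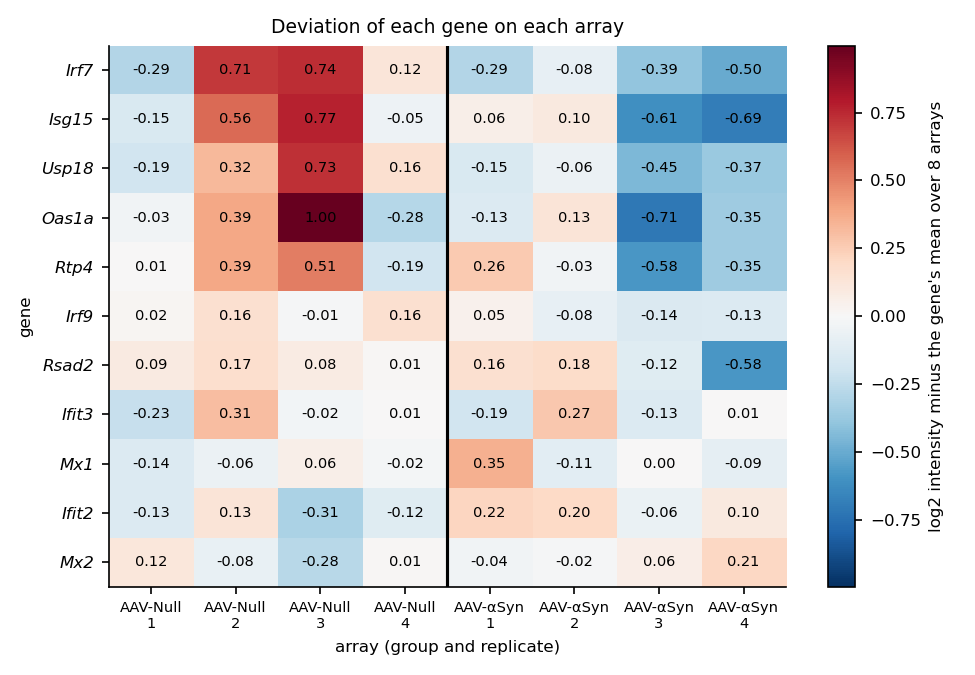
Log2 intensity minus the gene's own mean over the 8 arrays, written in each cell and coloured from blue (lower) to red (higher), for the 8 measurable genes by their brightest probe and for *Usp18*, *Oas1a* and *Rtp4*. *Irf7*, *Isg15*, *Usp18*, *Oas1a* and *Rtp4* are high on AAV-Null replicates 2 and 3 and low on AAV-αSyn replicates 3 and 4, and *Mx2* is lowest on AAV-Null replicate 3.

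Genes whose values ran most like the mean of the 8 standardized members were *Tgfbi* (r = 0.924), *Krtap19-5*, *Slc7a8*, *Lin52*, *Scgb1b30*, *Nudt4*, *Apoc2*, *Ifi44* (r = 0.877), *LOC102552412* and *Rd3l* (r = 0.862), over 8 arrays and among 33836 probes. Of these, *Ifi44* is known to be induced by interferon. Likeness to *Isg15* alone and to *Irf7* alone was looked at after these values were seen. The 10 genes nearest *Isg15* included *Oas1k* (r = 0.957), *Oas1a* (r = 0.955), *Helz2* (r = 0.948), *Oas1i* (r = 0.947), *Oasl2* (r = 0.936) and *Rtp4* (r = 0.927), which are known interferon-stimulated genes. The other 4 were *Cidea*, which was first (r = 0.971), *Kcnj9*, *Acot11* and *Tmem101*. *Oas1a*, an oligoadenylate synthetase that triggers the decay of RNA, read at this probe (A_64_P025790) 7.34, 7.98, 8.43 and 7.31 on the AAV-Null arrays and 7.46, 7.34, 6.93 and 6.99 on the AAV-αSyn arrays. The brighter *Oas1a* probe (A_44_P1085859), which the heat map shows, had r = 0.917 with *Isg15*. The rat *Oas1* genes are close copies, so their probes may share target RNA and are not separate evidence. Of all probes, 350 (1.03%) had r above 0.8 with *Isg15*, beside 5 of 49 probes (10.2%) of the longer interferon-stimulated list, namely *Oas1k*, *Oas1i*, *Rtp4* and both probes of *Oas1a*.

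Nearest *Irf7* were *Rcsd1* (r = 0.992), *Rsph6a*, *Zic1* (r = 0.965), *Camk2a* (r = 0.962), *Dpf3*, *Prkcd* (r = 0.954), *Tmem158*, *Klf5*, *Usp18* (r = 0.945) and *Lcor*. Of all probes, 532 (1.57%) had r above 0.8 with *Irf7*, as did 4 of the 49 probes (8.16%) of the longer interferon-stimulated list. With the members' mean these counts were 122 (0.361%) and 3 of 49 (6.12%). *Prkcd* encodes a protein kinase known for its high level in thalamic neurons, which lie outside the SN. It read 10.96, 12.94, 13.54 and 12.48 on the AAV-Null arrays and 10.65, 11.58, 11.21 and 10.22 on the AAV-αSyn arrays, with AAV-Null replicates 2 and 3 highest, as for *Irf7*. The neuronal gene *Zic1* was also highest on these arrays (6.21 and 6.77) and between 4.82 and 5.71 on the other 6. Whether the tissue taken at dissection had a part in the *Irf7* values was not tested.

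The rest of the pathway was read from 8 lists of 121 genes, of which 94 were measured by 115 tested probes. None of the 115 passed the adjustment in limma, and 62 were higher and 53 lower in the AAV-αSyn group. At an unadjusted p under 0.05 there were 6 probes, 2 higher (*Irf3* and *Gbp4*) and 4 lower (*Ifna5*, *Ifnk*, *Usp18* and *Oas3*), beside 5.64% of all probes. The arrays of the groups did not overlap at 4 probes, those of *Ifna5*, *Gbp4*, *Mavs* and *Igtp*, beside 3.83% of all probes.

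Among the ligands, 4 of 11 listed interferon genes were measured, and 2 of their 4 probes were lower at an unadjusted p under 0.05, beside 2.32% of all probes. Over the 8 lists together the called probes (6 of 115) were near the 5.64% of all probes, so nothing is read from the single list. *Ifna5*, an interferon alpha gene, read 4.55, 4.77, 4.86 and 4.27 on the AAV-Null arrays and 3.82, 3.87, 4.22 and 4.13 on the AAV-αSyn arrays. Its groups did not overlap, and the difference was −0.60 (SE 0.152, unadjusted p = 0.00397, adjusted p = 0.605 in limma), which shrank to −0.19 after normexp background correction. The interferon alpha genes resemble each other closely, so the probe may read more than one of them. *Ifnk*, interferon kappa, read 5.40, 5.39, 5.44 and 4.96 in the AAV-Null group and 4.58, 4.73, 5.00 and 5.14 in the AAV-αSyn group, a difference of −0.44 (unadjusted p = 0.0242, adjusted p = 0.826 in limma). AAV-Null replicate 4 lay inside the AAV-αSyn range. The *Ifnk* difference was −0.10 after normexp (with an unadjusted limma p of 0.0832), and its unadjusted limma p was between 0.0579 and 0.0637 without AAV-Null replicate 1, 2 or 3 or AAV-αSyn replicate 1 or 2. With arrays scaled by their 75th percentile it was 0.0656. *Ifnb1*, interferon beta, was well above background on 2 AAV-αSyn arrays and no AAV-Null array, and no fold can be given for it, while *Ifna2* and *Ifng* were above background on none.

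None of 5 receptor probes and none of 9 JAK and STAT probes had an unadjusted p under 0.05, and the log2 differences ran from −0.12 to 0.16 for the receptors. *Ifnar1*, a chain of the type I receptor, differed by −0.12 and −0.10 at its probes (95% intervals −0.49 to 0.26 and −0.30 to 0.11), and *Stat2* by 0.04 (−0.12 to 0.19). None of 12 probes for sensors of nucleic acid and their adaptors had an unadjusted p under 0.05, with a median of 0.05. Of the other IRF factors, *Irf3*, which is present before infection and starts interferon transcription, read 12.45, 12.55, 12.77 and 12.65 on the AAV-Null arrays and 12.88, 12.74, 12.78 and 12.90 on the AAV-αSyn arrays at a probe printed on 10 spots. That probe differed by 0.22 (unadjusted p = 0.0398, adjusted p = 0.857 in limma), whereas the other *Irf3* probe differed by 0.02 (95% interval −0.26 to 0.30). The unadjusted limma p of the first was between 0.0594 and 0.106 without AAV-Null replicate 1 or 2 or AAV-αSyn replicate 1, 3 or 4. It was 0.0594 with cyclic loess and 0.0582 with the side of the slide as a block, and with the *Irf3* probes averaged the difference was 0.12 with an unadjusted limma p of 0.287.

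Among 9 probes for brakes on the pathway, 1 had an unadjusted p under 0.05 and was lower, beside 2.32% of all probes. *Usp18*, which removes ISG15 from proteins and damps the receptor, read 7.35, 7.86, 8.27 and 7.70 in the AAV-Null group and 7.39, 7.48, 7.09 and 7.17 in the AAV-αSyn group. It was highest on AAV-Null replicates 2 and 3, as *Irf7* and *Isg15* were, and AAV-Null replicate 1 lay within the AAV-αSyn range. The difference was −0.51 (SE 0.193, unadjusted p = 0.0285, adjusted p = 0.835 in limma, exact permutation p = 0.0857). Its unadjusted limma p was between 0.0539 and 0.073 without AAV-Null replicate 2 or 3 or AAV-αSyn replicate 3 or 4.

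The longer list of interferon-stimulated genes had 49 tested probes, 21 higher and 28 lower, with a median log2 difference of −0.02, beside 0.01 over all probes. *Oas3*, another oligoadenylate synthetase, was well above background on all 4 AAV-Null arrays and on no AAV-αSyn array. It passed the filter on dim probes through the AAV-Null group only, so nothing is read from its p. The difference was −0.43 (95% interval −0.75 to −0.11, unadjusted p = 0.0156, adjusted p = 0.760 in limma), and the groups overlapped. With AAV-αSyn values raised to each array's lowest signal above background where they lay below it, the AAV-Null mean was 1.28-fold higher. This figure has no sampling error attached and holds for the quantile-normalized values only. After normexp the *Oas3* difference was −0.088 (with an unadjusted limma p of 0.130), and with an intensity trend the unadjusted limma p was 0.0908. *Gbp4*, a guanylate-binding protein, went the other way, with 2.53, 3.61, 3.60 and 3.52 in the AAV-Null group, where 2 arrays were above background, and 4.28, 3.99, 3.91 and 3.75 in the AAV-αSyn group. Its groups did not overlap, and the difference was 0.67 (unadjusted p = 0.0292, adjusted p = 0.835 in limma). It was 0.41 without AAV-Null replicate 1 and 0.080 after normexp (with an unadjusted limma p of 0.224), and the unadjusted limma p was 0.0736 without AAV-αSyn replicate 1 and 0.0546 without AAV-αSyn replicate 2. *Cxcl10*, an interferon-induced chemokine named here after its value was seen, read 6.36, 5.39, 5.49 and 6.43 on the AAV-Null arrays and 8.31, 6.57, 6.22 and 5.89 on the AAV-αSyn arrays. AAV-αSyn replicate 1 stood high. The difference was 0.83 (95% interval −0.38 to 2.03), the highest of the list, and 0.31 without that array and 0.51 after normexp. AAV-αSyn replicate 1 was also the highest array for *Cxcl9* (6.54) and *Psmb9* (10.82), as for *Mx1*. It was the lowest at the brighter probes of *Tap2* (7.41) and *Trim25* (8.62). None of 19 probes for class I antigen presentation, which interferon also raises, had an unadjusted p under 0.05, and their median was 0.01.

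**Figure D4:**
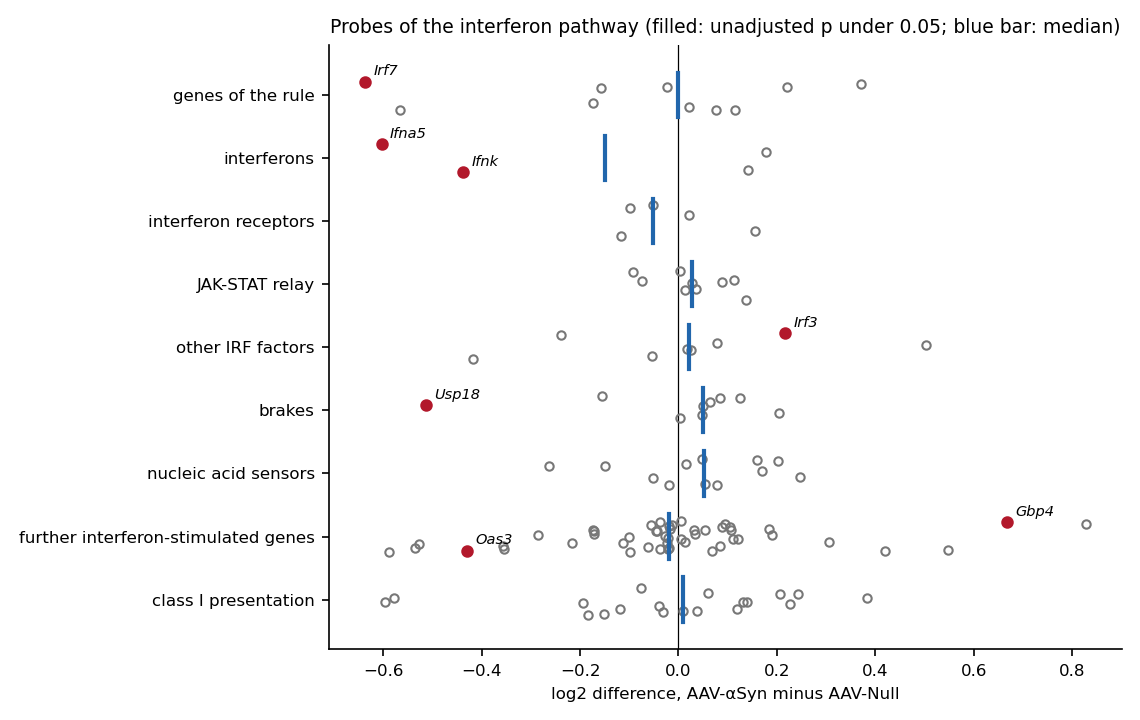
Log2 difference, AAV-αSyn minus AAV-Null (horizontal axis), of each tested probe of the 9 genes (top row) and of 8 pathway lists, filled and named where the unadjusted limma p was under 0.05, with the median of each list as a blue bar (vertical position within a row has no meaning). The points lie on both sides of 0 in every list, and the filled ones are 1 of 10 in the top row and 6 of 115 in the lists.

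Markers of cells that make or answer interferon were read beside these genes. The arrays measure bulk tissue, in which fewer cells of a type and less RNA per cell cannot be told apart. None of 12 microglial probes had an unadjusted p under 0.05 (median 0.06), and the summed intensity of 10 microglial genes ran from 54700 to 66500 in the AAV-Null group and from 54400 to 67400 in the AAV-αSyn group. None of 5 probes for T and NK cells had an unadjusted p under 0.05, with *Cd3e*, *Cd8a* and *Gzmb* above background on no array, and their summed intensity was 389 to 463 in the AAV-Null group and 316 to 560 in the AAV-αSyn group. The 6 probes for monocytes and border macrophages held none either, with *Ccr2* above background on no array and a summed intensity of 1180 to 1750 against 637 to 2510. None of 9 astrocyte probes had an unadjusted p under 0.05. The same held for 11 probes of endothelium and mural cells (median 0.04). Of 10 oligodendrocyte probes, 8 were higher, 1 of them, for the myelin gene *Mbp*, at an unadjusted p under 0.05 beside 3.31% of all probes, and the summed intensity was 370000 to 419000 against 412000 to 460000. None of 5 probes of choroid plexus and ependyma had an unadjusted p under 0.05, but AAV-αSyn replicate 2 stood apart with a summed intensity of 5830, where the other arrays ran from 561 to 1150. Of 6 probes of general neuronal genes, 4 were lower and 1 of these, for the synaptic vesicle gene *Syt1*, had an unadjusted p under 0.05, beside 2.32% of all probes (−0.40, adjusted p = 0.675 in limma). All 5 red blood cell probes were lower, none at an unadjusted p under 0.05. All 9 probes of the dopamine neuron list were lower in the AAV-αSyn group, 3 of them at an unadjusted p under 0.05 beside 2.32% of all probes, and the summed intensity was 153000 to 195000 against 119000 to 130000. All 5 probes for serotonin neurons of the raphe, which lies outside the SN, were higher, 2 of them at an unadjusted p under 0.05 beside 3.31% of all probes (summed intensity 687 to 2630 against 2220 to 5970). The part of these shifts in the values of *Irf7* and the other members was not tested.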

How the data were processed

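RNA of the ipsilateral SN of 8 rats was measured on Agilent one-colour arrays, 4 per group; the methods name fewer biological replicates per group than the arrays analysed here, and p-values measure the spread between these samples. The authors deposited scanner files with each spot's intensity, background-corrected by Feature Extraction (11.5.1.1 in the submitters' processing notes, 12.0.3.2 in the file headers) and not normalized between arrays, and a matrix of log2 values after the authors' quantile normalization.

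Control spots and outlier-marked spots were dropped and the intensities log2-transformed. Probes well above background (at least 0.5 of their spots) on at least 1 array were kept, 33853 of 45598. After quantile normalization and averaging of the spots of each probe, the groups were compared with limma 3.58.1 (R 4.3.3, package data.table at 1.17.8, statmod 1.5.0), two-sided, with Benjamini–Hochberg adjustment over all probes tested and a threshold of 0.05. Exact permutation tests used the 70 arrangements of 8 arrays into 4 and 4. Symbols came from RefSeq accessions (GRCr8), which named 21229 probes. The number of arrays limits the precision. The method was tested on simulated data, where 192 of 200 changed probes were recovered, with 15 false calls among 33836 probes. The changed probes had a mean estimated log2 difference of 1.99, and smaller differences were not simulated.

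The members, the lists of genes and the tests were chosen with earlier results of these data known. Named genes are all members, every pathway gene with an unadjusted p under 0.05 (up to 10 a list) and the 10 genes most like the members' mean. In the median over the member genes and their correlations the brightest probe stood for a gene with several, while medians of lists and likeness to the members were taken over single probes. *Cxcl10*, *Syt1*, *Mbp*, *Irf4*, *Ifna2*, *Ifng*, *Cd3e*, *Cd8a*, *Gzmb*, *Ccr2*, *Mavs*, *Igtp*, *Ifnb1*, *Ifnar1*, *Stat2*, *Prkcd*, *Zic1* and the genes like *Isg15* or *Irf7* alone are named outside this rule, after their values were seen. *Cxcl9*, *Psmb9*, *Tap2* and *Trim25* were likewise named after their values were seen. Single values of some listed genes are left out.

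As alternatives, arrays were scaled by the 75th percentile or by cyclic loess, the background was corrected by normexp (offset 50, on the median signal), the filter was removed or set to 4 or 8 arrays, the deposited matrix was used, the fit had an intensity trend, a robust variance or array weights, the replicate number or the side of the slide was a block, probes of a gene were averaged, and arrays were left out singly. The same alternatives for the pathway lists were chosen after seeing the data.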

Additional observations from a re-analysis of the deposited data

Results flagged for a closer look

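In 3 of the 32 groups of 4 arrays examined, 1 array stood apart by more than Dixon's critical value of 0.829 for the gap to its neighbour over the group's range. Chance alone sets apart about 1 group in 20, which is 1.6 of these 32. For the *Irf9* probe A_44_P346959, AAV-αSyn replicate 2 was the high array (gap over range 0.833). For *Gbp4*, AAV-Null replicate 1 was the low array (0.915), on a probe near background. For *Ifnk*, AAV-Null replicate 4 was the low array (0.886).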

How the results depend on the processing

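None of the 10 member probes and none of the 115 pathway probes passed the adjustment under any of the 12 processing alternatives run for them, or with any of the 8 arrays left out. The count of member probes with an unadjusted p under 0.05, 1 as reported, was 2 with cyclic loess, without the filter and with an intensity trend, and 3 with array weights, and ran from 0 (without AAV-αSyn replicate 4) to 2 with 1 array left out (2 without replicate 1 of either group or without AAV-αSyn replicates 2 or 3). The median difference over the member genes, −0.09, was −0.21 with array weights and 0.027 with the probes of a gene averaged, and between −0.14 and −0.02 with 1 array left out. The pathway count of 6 was 21 with array weights, which raised the share of all probes at that threshold to 17.0%. It ran from 3 (without AAV-Null replicate 2, beside 4.51% of all probes) to 12 (without AAV-Null replicate 4, beside 8.28%). With 1 array left out, the share of all probes ran from 4.26% to 8.28%. *Rsad2* turned to 0.098 when its probes were averaged. With 1 array left out, the differences ran from −0.028 to 0.126 for *Mx1*, from −0.117 to 0.074 for *Ifit3* and from −0.0092 to 0.036 for the *Irf9* probe A_44_P346959, with both signs. Of all values of single genes under the alternatives, 345 kept their direction and 6 reversed. After normexp the differences of the dim probes shrank toward 0 (*Ifna5*, *Ifnk*, *Gbp4*, *Oas3* and the dimmer *Rsad2* probe). Normexp adds an offset of 50, so the log2 differences of probes this dim shrink by construction. The dimmer *Rsad2* probe, for example, had intensities of 10.4 to 23.1. *Ifna5* kept an unadjusted limma p under 0.05 in all 13 of its processing alternatives, with 0.0112 after normexp. The cause of the other changes was not tested. *Irf7* was lower in all 13 of its processing alternatives (−0.85 to −0.58), with an unadjusted limma p under 0.05 in each.

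With the replicate number as a block, the count was 2 for member probes and 3 for pathway probes, beside 6.55% of all probes. The replicate number is also the row of the slide. In this setting *Usp18*, *Irf3*, *Ifnk* and *Gbp4* were above an unadjusted limma p of 0.05, and *Ifit2* and *Irf4* newly below it. No probe of all those tested passed the adjustment. Arrays with the same number correlated at 0.144, 0.267, 0.0406 and −0.0022 in their deviations from the group means, and each matched its own number best for replicates 1 and 2 only, so the samples are taken to share a number and not to be paired. Signal over background limits *Oasl*, *Ifnb1*, *Gbp4*, *Oas3* and the dimmer *Rsad2* probe.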
